A study of Mus musculus with 6 samples.

Results

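CpG-dense stretches of mouse chromosomes 1 to 19 that were highly methylated in testis were described here. They were 554 tiles of 500 bp out of 16672 CpG-dense tiles that could be measured. Chromosomes 1 to 19 were cut into fixed tiles from position 1. A tile was taken as dense where 40 or more distinct cytosine positions were listed in any of the 6 libraries, and as measured where 5 or more of its positions had 10 or more reads in all 6. Its methylation level was the methylated share of the calls summed over those positions. Of 21887 dense tiles, 16672 were measured, and the shares given below are of those. The 554 methylated dense tiles had a level of 80% or more in each of the 6 libraries and made up 3.32% of the measured dense tiles. A further 15261 dense tiles (91.5%) were below 10% in each library and are the comparison used throughout, and 857 (5.14%) were of neither kind. The tiles were chosen by their levels in all 6 libraries, so the levels given below are a description.

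The assay was reduced representation bisulfite sequencing. The enzyme MspI cuts DNA at CCGG, short fragments are kept, and bisulfite then turns unmethylated cytosine into uracil while methylated cytosine is left. Each library came from the right testis of 1 mature male mouse of the KM strain. In 3 mice the left one was taken out before puberty (hemicastrated), and 3 mice had a sham operation. The samples were whole testis, so that germ cells at all stages and the somatic cells around them contribute to every level, and fewer cells of a type cannot be told apart from less methylation per cell.

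In mammalian DNA most CpG dinucleotides are methylated on both strands and, over time, methylated CpGs are lost to mutation, which leaves most of the genome poor in CpG. Clusters of CpGs, known as CpG islands, are usually free of methylation and mark the starts of many genes. Dense and methylated DNA is the less common combination, and is known from gene bodies, from transposable elements silenced in the germline, from one parental copy of imprinted control regions and, in somatic cells, from the promoters of some germline genes.

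The libraries held between 64504011 and 78630942 methylation calls. Together they listed 12616229 positions on chromosomes 1 to 19, of which 930333 had 10 or more reads in all 6 libraries. The files give no strand or sequence context. Within RefSeq promoter windows, where the letters are known, 487725 of 490328 listed positions (99.5%) were a cytosine of a CpG on one of the strands, and positions are called CpG cytosines below.

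Sequences are shown for the gene starts on methylated dense tiles that have measured, methylated positions before the start, with the other start of 1 of these genes for contrast. Taf1c, which encodes a subunit of the promoter selectivity factor of RNA polymerase I, has a pair of start sites in the RefSeq table of build GRCm38.p6, on the minus strand of chromosome 8. The dense tile at its outer start was unmethylated, and a dense tile at its inner start, inside the gene, was methylated. Gm31057, on the plus strand of chromosome 10, has the other methylated start; it lies inside Rexo1, which encodes an RNA exonuclease. The 250 bases before each start are printed 5′ to 3′, from RefSeq, with every CpG in capitals.
Taf1c, inner start (chr8:119602647-119602896, minus strand): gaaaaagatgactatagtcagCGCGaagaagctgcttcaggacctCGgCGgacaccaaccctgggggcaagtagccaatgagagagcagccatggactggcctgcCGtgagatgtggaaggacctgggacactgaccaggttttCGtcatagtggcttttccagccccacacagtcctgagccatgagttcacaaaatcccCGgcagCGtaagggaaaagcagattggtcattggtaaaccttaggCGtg
Taf1c, outer start (chr8:119605207-119605456, minus strand): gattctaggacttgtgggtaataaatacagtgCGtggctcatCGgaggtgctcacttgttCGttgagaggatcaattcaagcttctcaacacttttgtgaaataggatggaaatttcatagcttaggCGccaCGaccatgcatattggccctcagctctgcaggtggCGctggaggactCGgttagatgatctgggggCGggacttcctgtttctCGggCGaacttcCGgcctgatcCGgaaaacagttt
Gm31057 (chr10:80546661-80546910, plus strand): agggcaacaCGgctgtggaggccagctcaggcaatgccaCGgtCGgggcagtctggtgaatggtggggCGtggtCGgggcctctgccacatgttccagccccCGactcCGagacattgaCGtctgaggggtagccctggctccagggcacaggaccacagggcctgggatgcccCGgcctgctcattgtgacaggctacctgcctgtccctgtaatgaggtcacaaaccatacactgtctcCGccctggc

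The stretch before the inner Taf1c start holds 9 CpGs. Its 4 measured positions averaged 97.4%, 97.0% and 97.2% in hemicastrated replicates 1 to 3 and 96.2%, 96.6% and 96.6% in sham replicates 1 to 3. The whole tile (chr8:119602501-119603000) read 96.7%, 97.2% and 97.2% in hemicastrated and 97.0%, 96.0% and 96.6% in sham mice. The tile at the outer start (chr8:119605001-119605500) read 0.832%, 0.424% and 0.476% in hemicastrated and 0.0715%, 0.433% and 0.538% in sham mice, from 16 measured positions. None of those lay among the 250 printed bases, which hold 12 CpGs, so the level of the printed outer sequence itself was not measured. A second methylated dense tile of Taf1c lies farther into the gene (chr8:119600501-119601000) and read 93.4% to 96.0%. In 1 gene, the tile at the outer start was therefore near 0 and the tile at the inner start near 100 in every library.

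The Gm31057 stretch holds 10 CpGs. Its 6 measured positions averaged 96.6%, 97.8% and 93.8% in hemicastrated and 94.3%, 92.7% and 98.4% in sham mice. Toward the start of the host gene Rexo1, a dense tile (chr10:80561501-80562000) was at 0.311% to 0.789%. Motifs were searched on both strands of the 300 bases from 250 before to 50 after each start. GGGCGG, the core of the binding motif of Sp factors, was found at the outer Taf1c start and at Gm31057 and is held by 36.0% of all 31396 promoters. CCAAT was found at both Taf1c starts and is held by 37.3% of all promoters. CCGGAAG, a motif of ETS factors that contains the MspI site, was found at the outer Taf1c start only and is held by 9.004% of all promoters. TATAAA (13.6%), TGACGTCA (1.83%), CACGTG (7.14%) and the palindromic NRF1 motif (4.68%) were found at none of these 3 starts. A match is a description of the letters.

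Such starts were rare. Of the 31396 promoters, 7934 lay on a dense tile below 10% and 4 on a methylated dense tile. The 4 were Taf1c (inner start), Gm31057, Tmem267 and 3110070M22Rik, and the last pair share 1 tile. Promoters on unmethylated dense tiles had a median of 27 CpGs in their 300 bases, against 7 over all promoters. The inner Taf1c window had 12 and the Gm31057 window 10. The other windows on a methylated tile, of Tmem267 and 3110070M22Rik, had 50 and 48, but the measured positions of the methylated tile begin beyond them.

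The methylated share of tiles became smaller with CpG density (the bar chart of tiles by density). Of 1886 measured tiles with 5 to 9 listed positions, 63.8% were at 80% or more in every library. That share was 42.2% of 10771 tiles with 20 to 29 positions and 23.1% of 6375 tiles with 30 to 39. Among dense tiles it was 9.42% of 4447 tiles with 40 to 49 positions, 2.89% of 3528 with 50 to 59, and 0.672% of 4764 with 60 to 79. From 80 positions on it was 1 of 3933 tiles, or 0.0254%. The share below 10% ran the other way, from 5.46% of the sparsest to 98.3% of the densest tiles. Methylated dense tiles thus sit mostly just above the density that the rule required: 419 of the 554 had 40 to 49 listed positions, and their median was 44.

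**Figure D1:**
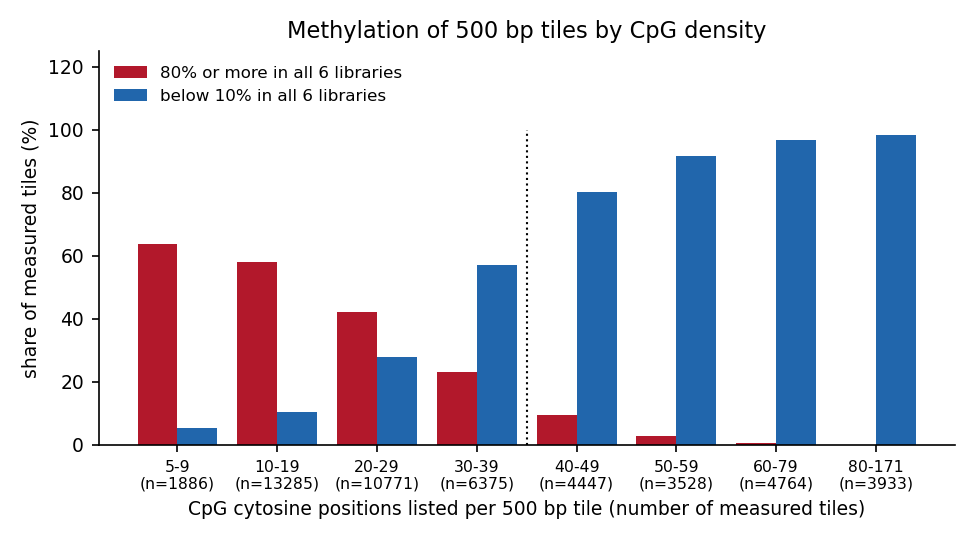
Share of measured 500 bp tiles (vertical axis, %) at 80% or more (red) or below 10% (blue) in all 6 libraries, by the number of CpG cytosine positions listed per tile (horizontal axis), with the dotted line at the dense threshold of 40. The red share is 63.8% at 5 to 9 positions and 0.0254% at 80 to 171, and the blue share 5.46% and 98.3%.

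The 5 methylated tiles with the most listed positions were a small and mixed set. The single tile above 80 positions, with 82, lies inside Map1s, which encodes a microtubule-associated protein (chr8:70913001-70913500, 63.0% of the way along the gene). It read 86.5%, 82.8% and 86.5% in hemicastrated and 89.8%, 83.1% and 88.6% in sham mice, so that the groups overlapped. Next came a tile at Tmem267 with 74 positions, a tile of Plec with 73, a tile of Klf12 with 72 and a tile on chromosome 8 outside any gene with 71 (chr8:5302501-5303000, 84.3% to 89.0%, 183642 bp from Gm5605). The Plec tile reached 96.6% to 98.3%, so that a high CpG count went with levels from the low 80s to the high 90s.

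The Tmem267 tile (chr13:119488501-119489000) stood apart from the rest in its surroundings. It read 90.3%, 80.3% and 82.0% in hemicastrated and 87.1%, 87.3% and 88.7% in sham mice, on 246.8 reads per measured position, against a median of 61.8 for all methylated dense tiles. The tile before it, which holds the starts of Tmem267 and 3110070M22Rik and has 128 listed positions, read 0.937%, 1.55% and 0.742% in hemicastrated and 0.831%, 1.01% and 0.420% in sham mice. It was the only case in which a methylated dense tile adjoined a dense tile below 10%. Whether the high read count marks sequence present in more than 1 copy was not tested.

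Methylation of the 554 tiles was high and varied little between mice (the plot of levels by library). Both follow in part from the rule, which required a high level in every library and so limited the span over mice. The spreads below therefore describe the chosen tiles and are not a result about dense tiles in general. The mean level of the 554 tiles over the 6 libraries had a median of 92.8%, with 5% of tiles under 86.0% and 5% over 97.0%. Library medians were 92.3%, 93.4% and 92.7% in hemicastrated replicates 1 to 3 and 92.8%, 93.8% and 93.5% in sham replicates 1 to 3. Hemicastrated replicate 1 was the lowest and sham replicate 2 the highest, and the groups overlapped. Within a tile, the SD between 3 mice had a median of 1.24 percentage points in sham and also 1.24 in hemicastrated mice. Counting error alone gives 0.829, a lower limit, since every call of a tile was taken as independent. The levels spanned under 5 points over the 6 mice in 381 tiles and 10 points or more in 24. In 298 tiles every library was at 90% or more, and in 68 every library was at 95% or more. Dense tiles below 10% had a median level of 0.525% and a similar read depth, with a median of 63.7 reads per position.

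**Figure D2:**
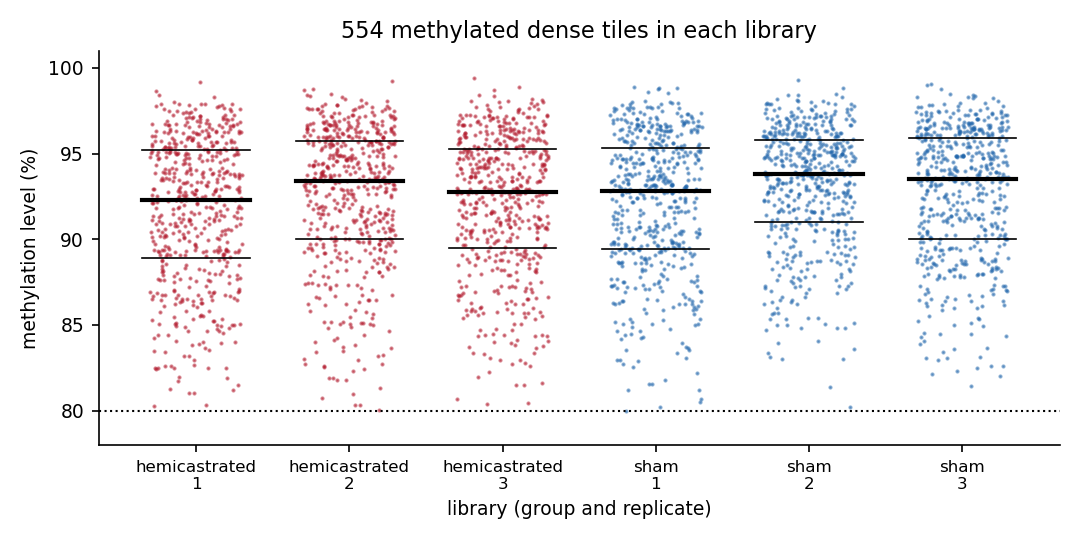
Methylation level (vertical axis, %, from 78) of each of the 554 methylated dense tiles (points) in each library (horizontal axis; hemicastrated red, sham blue), with the median as a thick line, the quartiles as thin lines and the 80% threshold dotted. Medians run from 92.3% in hemicastrated replicate 1 to 93.8% in sham replicate 2, and the groups overlap.

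Dense tiles rarely held a middle level: 15397 had a mean below 10%, 29 between 50% and 60%, 57 between 70% and 80%, 197 between 80% and 90% and 414 at 90% or more. The tiles nearest to the threshold illustrate its grain. Just inside were chr4:56729001-56729500, with the threshold value itself in sham replicate 1 and 81.0% to 85.6% elsewhere, a tile of Rusc2 (chr4:43416001-43416500) with 80.02% in hemicastrated replicate 2 and up to 93.3%, and chr8:67035501-67036000 with a lowest level of 80.2%. Just outside were a tile of Spen (chr4:141476001-141476500), at 79.9% to 81.2%, and chr6:89762001-89762500 and chr13:61422001-61422500, whose lowest levels were 79.9% and 79.8%.

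The widest span over mice was found in Cacnb2, which encodes a calcium channel subunit (chr2:14727001-14727500). It read 80.4%, 93.0% and 92.9% in hemicastrated and 92.5%, 89.6% and 95.5% in sham mice, a range of 15.2 points set by hemicastrated replicate 1. Asph (chr4:9585501-9586000) read 87.7%, 83.2% and 84.3% in hemicastrated and 86.2%, 98.1% and 94.3% in sham mice, where sham replicate 1 lay among the hemicastrated ones. The next 3 were chr7:103101001-103101500 near Olfr585 (range 14.5 points), a tile on chromosome 18 (14.3 points) and chr9:85626001-85626500 (13.7 points). The groups overlapped in all 5.

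Positions that the rule did not use gave the same picture. The 554 tiles held 15660 listed positions that were too thinly read to be measured. Pooled over tiles, these were methylated in 87.6%, 87.5% and 88.5% of calls in hemicastrated and 87.3%, 88.9% and 88.7% in sham mice, while measured positions of the tiles stood at 91.4% to 92.8%. In dense tiles below 10% the thinly read positions stood at 0.774% to 0.963%. Thinly read positions of methylated tiles were thus close to, and in every library a few points below, the measured ones.

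Most measured positions within the tiles were highly methylated, which the rule favours because it used the counts of these same positions. Of 10096 measured positions, 9624 (95.3%) averaged 80% or more and 84 (0.832%) averaged below 50%. In 352 of the 554 tiles every position averaged 80% or more, and the other tiles held at least 1 position below that. Plus-strand and minus-strand cytosines of the same CpG, measured in 3867 pairs, differed by a median of 1.60 points, and by over 20 points in 42 pairs. Positions far below the rest were few: 39 were below 20% in all 6 libraries, spread over 31 tiles. Another 20 in 14 tiles were below 20% in some libraries and at 80% or more in others.

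Position relative to genes set methylated and unmethylated dense tiles apart (the paired bar charts of location). A tile was called a gene end where it lay within 1000 bp of a gene boundary in the RefSeq gene table of GRCm38.p6, and otherwise inside or outside genes. Of dense tiles below 10%, 80.9% were at gene ends, 17.0% inside and 2.06% outside genes. Of the methylated dense tiles, 39 (7.04%) were at gene ends, 321 (57.9%) inside and 194 (35.02%) outside. Where the strand was known, 9627 unmethylated tiles (63.1%) and 7 methylated tiles (1.26%) lay at the start of a gene. At the stop side of a gene it was 218 (1.43%) and 19 (3.43%). Protein-coding genes were overlapped by 60.1% of methylated and 90.8% of unmethylated tiles, and pseudogenes by 2.35% and 0.603%.

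**Figure D3:**
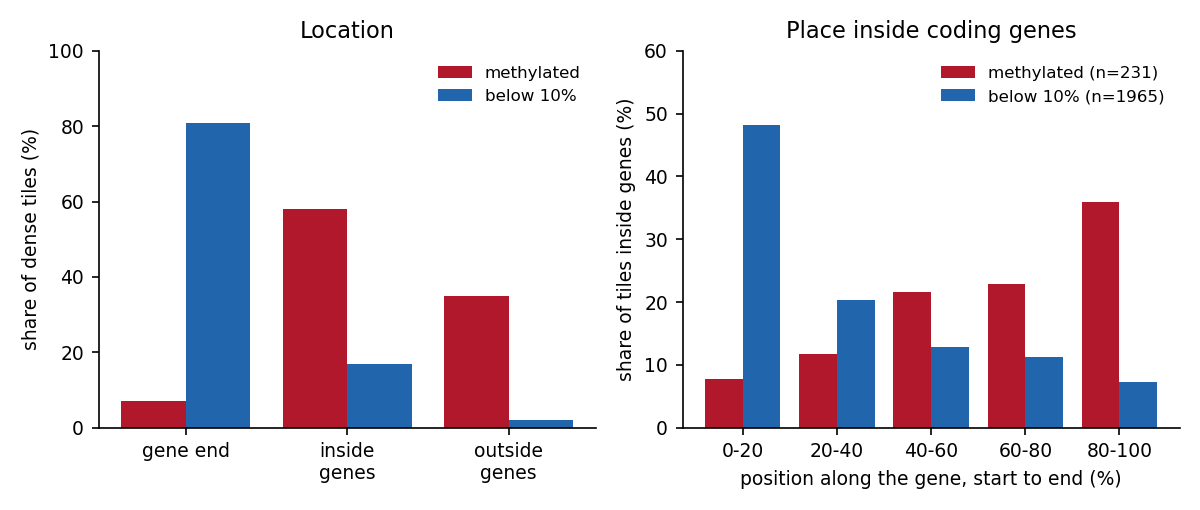
Left, share of methylated (red, 554) and unmethylated (blue, 15261) dense tiles (vertical axis, %) at gene ends, inside and outside genes. Right, share of the tiles inside coding genes of known strand (vertical axis, %) by position along the gene from start to end (horizontal axis, %): 35.9% of methylated tiles lie at 80 to 100% of the length and 48.1% of unmethylated tiles at 0 to 20%.

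Inside coding genes of known strand, methylated tiles became more frequent toward the end of the gene. The first 20% of the gene length held 18 of 231 (7.79%), the next stretches of 20% held 11.7%, 21.6% and 22.9%, and the last held 83 (35.9%). Of 1965 unmethylated dense tiles inside such genes, the first 20% held 48.1% and the last 20% held 7.28%. The order within single genes was counted with tiles at gene ends included and in genes of any kind. It therefore also reflects that 63.1% of unmethylated dense tiles lie at the start of a gene. Of 326 genes with a methylated dense tile, 216 also had an unmethylated one, and for 167 of these the strand was known. In 157 (94.0%) every unmethylated tile was nearer the gene start than every methylated one. The order was the opposite in 4 genes and mixed in 6. Exons and introns are not in the table used here, so tiles could not be placed in them.

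The 10 genes with the most methylated dense tiles held between 2 and 9 of them. Plec, which encodes plectin, a large linker between cytoskeletal filaments and membranes, held 9 tiles, all within chr15:76174501-76181000, out of a gene at chr15:76170974-76231378. They read 95.6% to 99.4% over all libraries. Plec also had 3 dense tiles below 10%, at chr15:76198001-76198500 and chr15:76229001-76230000, which read 0% to 2.36%. The densest of the 9 (chr15:76180501-76181000) read 97.5%, 96.6% and 97.6% in hemicastrated and 97.7%, 97.9% and 98.3% in sham mice. Plec also held the 2 longest runs of adjoining methylated tiles, of 3 tiles each, at chr15:76178501-76180000 and chr15:76174501-76176000. The other runs were 490 single tiles and 29 pairs.

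Fat1, a giant cadherin, held 3 methylated tiles. One near the end of the gene (chr8:45040501-45041000, 90.3% along) read 97.3%, 98.8% and 96.0% in hemicastrated and 96.4%, 97.0% and 95.3% in sham mice. The others (chr8:44950501-44951000 and chr8:44951501-44952000) lay 14.8% and 15.6% along and read 87.9% to 96.4%. Ahead of them, 4 dense tiles in the first 5% of the gene read at most 0.954%. Between them and the gene end, chr8:45010001-45010500 read 38.1%, 33.0% and 27.2% in hemicastrated and 18.2%, 23.6% and 30.6% in sham mice. Fat1 thus held all 3 kinds of dense tile.

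Kif26a, a member of the kinesin family, had 5 dense tiles in the first 6.02% of its length, which read at most 1.46%. Its 3 methylated tiles, from 80.2% of the length on, (chr12:112174001-112174500 and chr12:112175501-112176500) read 89.5% to 97.8%. The densest of them, with 70 positions, read 96.2%, 96.0% and 97.1% in hemicastrated and 96.3%, 96.9% and 97.0% in sham mice.

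Spen, a transcriptional corepressor with a role in X inactivation, had 3 methylated tiles between 88.9% and 92.4% of the way along (chr4:141473001-141473500 and chr4:141475001-141476000), at 94.6% to 97.6%. Its tile that just missed the threshold adjoins them, and its 3 dense tiles at the start read at most 0.803%. Ttc28 had 3 tiles at 74.0%, 84.0% and 99.1% of its length, at 93.2% to 97.3%. Its 3 dense tiles in the first 24.4% read at most 1.02%.

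The other 5 genes held 2 tiles each and come first by alphabet among 40 genes with 2 or more. Acnat1, an acyltransferase gene, read 93.7% to 96.6% in an adjoining pair and had no other dense tile. Ahdc1, which encodes an AT-hook protein, read 81.3% to 89.6%. Cacna1h, a T-type calcium channel gene, read 90.4% to 98.1%, against 0% to 3.84% in its 4 unmethylated tiles. Caskin2 read 83.0% to 93.3% and Celsr1, a cadherin of planar cell polarity, 90.7% to 96.5%. In Celsr1 the methylated pair ends at chr15:86031500 and an unmethylated dense tile begins at chr15:86033501, with levels from 0.273% to 1.35%. The interval between these coordinates thus holds the border between high and nearly absent methylation.

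Of the remaining long runs, the pair inside Klf12, which encodes a zinc finger repressor (chr14:100055001-100056000), read 90.5% to 93.5%, and the dense tiles at the Klf12 start read at most 0.746%. The pair near the end of Srsf4, a splicing factor gene (chr4:131900001-131901000), read 90.6% to 95.3%. The pair in Kif26a is given above.

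The 7 tiles at gene starts were few enough to name. Apart from those of Tmem267 and Gm31057, 1 lay at Bhlha15, a transcription factor gene of secretory cells (chr5:144191001-144191500, 88.8% to 94.8%), and 1 lay 410 bp from Sult2a4. The remaining 3 lay far into or at the end of a coding gene and near the start of a non-coding or predicted one: Gm36816 within Gng12, Gm34255 at Iqcn, and Gm51601 at Rab4a, a small GTPase gene (chr8:123835001-123835500, 96.6% to 98.5%).

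Dense tiles were then counted by gene list, against the 3.32% of all dense tiles that were methylated. A tile was counted for a gene only where it overlapped the gene between its boundaries, so control regions outside genes were not covered. The lists were chosen with results of these data known. Of 11 paternally methylated imprinted loci, 5 had a measured dense tile, and 0 of their 8 dense tiles were methylated in every library, a number too small to be set apart from 3.32%. Those of Igf2 (4 tiles), Rasgrf1, Zdbf2 and Dio3 read at most 2.79%, and the 1 tile of Dlk1 read 2.27% to 29.1%. The other genes of this list, H19 and Meg3 among them, had no measured dense tile. These values are therefore not levels of imprinted control regions that lie outside the genes. By background knowledge, male germ cells lack maternal methylation and somatic cells keep it on one copy. Of 34 maternally methylated imprinted loci, 20 had a measured dense tile. Of their 32 dense tiles, 0 were methylated in every library, which is likewise close to the background share, 11 were below 10% and 21 were of neither kind. Per gene, the highest level was 8.26% at Magel2, 12.1% at Kcnq1ot1 and Kcnq1, 14.9% at Igf2r and Airn, 15.7% at Nnat and Blcap, 11.7% at Plagl1, 16.8% at Grb10, 11.2% at Nespas, listed as Gnasas1, 14.3% at Nap1l5 and Herc3, 18.8% at Inpp5f, 15.3% at Zrsr1 and Commd1, 14.1% at Mcts2 and H13, and 12.3% at Impact. Higher levels were found at Trappc9 (up to 37.5%) and Gnas (up to 70.4%).

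Of 11 dense tiles in germline genes that are methylated in somatic cells, 9 were of neither kind and 1 was below 10%. Dazl, Sycp3, Sycp2, Mael, Hormad1, Rpl10l, Dpep3 and Slc25a31 read at most 33.1%. The 1 methylated tile was in Asz1, a piRNA pathway gene, at 78.8% of its length (chr6:18063001-18063500). It read 96.5%, 97.8% and 96.5% in hemicastrated and 96.7%, 97.4% and 96.8% in sham mice. Among Sertoli and Leydig cell genes, 16 of 17 dense tiles were below 10% and 1 was methylated, in Fshr, the receptor for follicle-stimulating hormone (88.1% to 91.3%). That tile lies 21.5% of the way along the gene. No dense tile was methylated among 80 of homeobox genes, 18 of housekeeping genes, 12 of spermiogenesis genes, 13 of meiosis genes and 1 of olfactory receptor genes. At a background share of 3.32%, lists of these sizes hold few or no methylated tiles, and the zeros are not results about the lists.

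The DNA methylation machinery had 1 of 23, in Tet3, which encodes an oxidase of methylated cytosine. The tile near the end of the gene (chr6:83368001-83368500) read 86.9%, 85.1% and 85.8% in hemicastrated and 88.6%, 87.7% and 86.4% in sham mice, and the dense tiles at the start read at most 0.878%. Of 27 dense tiles in collagen genes 1 was methylated, in Col6a2 (chr10:76614501-76615000, 95.7% to 96.8%). Zinc finger genes had 10 of 302 (3.31%), close to the 3.32% over all dense tiles, with 2 each in Zfp334 (94.9% to 97.7%), Zfp423 (90.8% to 95.7%) and Zfp574 (85.2% to 98.1%) and 1 each in Zfp516, Zfp553, Zfp710 and Zfp764. In Zfp574 the value of 85.2% was hemicastrated replicate 1 in a tile where the other 5 mice were at 96.3% to 98.0%. Solute carrier genes had 6 of 261 (2.30%), protocadherin genes 1 of 40, in Pcdh15 (90.6% to 93.0%), and dynein and kinesin genes 3 of 51, all in Kif26a.

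By chromosome, the methylated share of dense tiles was highest on chromosome 4 (65 of 1200, 5.42%) and lowest on chromosome 19 (8 of 585, 1.37%). Chromosome 13 had 9 tiles (1.40%) and chromosome 11 had 23 (1.67%).

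Methylation of these tiles was continuous with that of their surroundings (the plot of neighbouring levels by distance). Of 174 measured, CpG-sparser tiles directly beside a methylated dense tile, 156 (89.7%) were at 80% or more in every library and 0 were below 10%. Their medians were 92.5%, 93.4% and 92.9% in hemicastrated and 92.9%, 93.8% and 92.5% in sham mice. Of 3927 sparser tiles beside an unmethylated dense tile, 96.2% were below 10% and 0 were at 80% or more in every library. Around unmethylated tiles the median of the tiles' mean levels was 3.75% at 2000 bp before and 3.16% at 2000 bp after the tile, coordinates increasing, and 10.3% and 35.5% at 3000 bp. Where the neighbour of a methylated dense tile was itself dense and measured, each side of each tile being counted once, it was methylated in 66 cases, of neither kind in 10 and below 10% in 1.

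**Figure D4:**
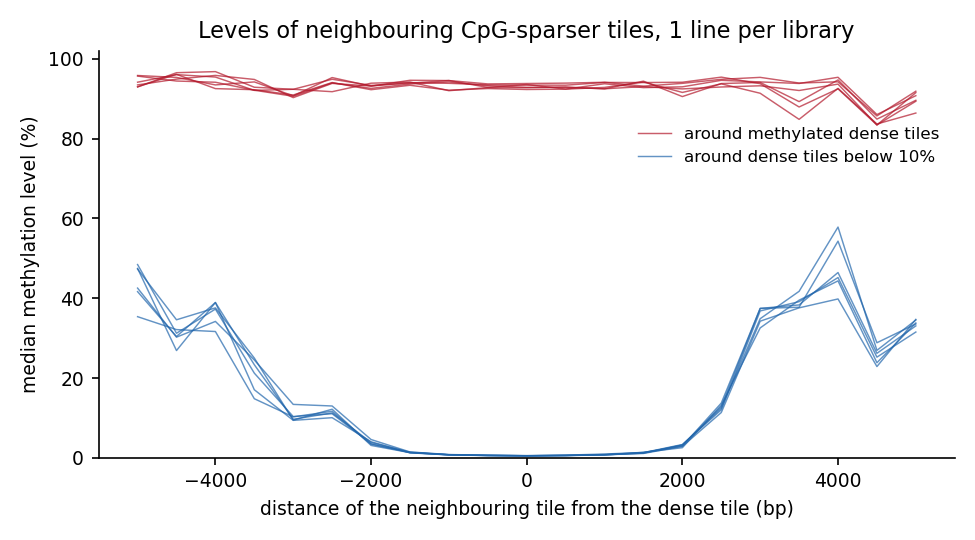
Median methylation level (vertical axis, %) of CpG-sparser tiles by distance from a dense tile (horizontal axis, bp; the dense tile itself at 0), around methylated (red) and unmethylated (blue) dense tiles, 1 line per library. Tiles directly beside methylated dense tiles have medians of 92.5% to 93.8% and those beside unmethylated ones 0.566% to 0.671%; beyond 1000 bp most red points rest on under 20 tiles.

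Methylated tiles called outside genes lay over 1000 bp from any gene boundary by definition, and distances of other tiles were not taken for comparison. The 194 such tiles had a median distance of 32845 bp to the nearest gene, from 1142 to 448872 bp, and 165 were over 10 kb away. Many of these tiles had the same pattern of CpGs. The distances between successive CpGs were read along each dense tile, and a tile was said to share spacing where 8 successive distances, spanning 100 bp or more, also occurred in a dense tile over 10 kb away or on another chromosome. This measure was chosen after the data were seen, and it uses listed positions and no methylation. Of the 554 methylated tiles, 181 (32.7%) shared spacing, against 15 of 15261 unmethylated dense tiles (0.0983%), of which 14556 held a stretch long enough to be searched. Outside genes it was 115 of 194 (59.3%), inside genes 65 of 321 (20.2%) and at gene ends 1 of 39. With 6 distances the counts were 195 and 21, and with 10 they were 128 and 18.

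Tiles linked by shared spacing fell into sets. Links were chained, so that a tile shared a stretch with at least 1 other tile of its set and not necessarily with all. The largest set held 105 methylated tiles on 18 chromosomes, 66 of them outside genes, 38 inside and 1 at a gene end. Together with tiles of other kinds, 165 dense tiles belonged to this set or shared a stretch with one of its tiles: 105 methylated, 12 of neither kind, 48 not measured and 0 below 10%. The second set held 27 methylated tiles on 13 chromosomes among 41 dense tiles, of which 0 were below 10%. The third held 8 on 6 chromosomes. The single spacing shared by the largest number of methylated tiles, 12 on 9 chromosomes, ran 2, 2, 18, 34, 12, 14, 35 and 7 bp from CpG to CpG, 124 bp in all. Copies of a transposable element share such spacing. Repeat annotation was not used here, and whether the sets are such copies was not tested.

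Tiles with shared spacing were slightly less methylated and less deeply read than the rest. The 181 had a median level of 91.7% on 55.2 reads per position and the 373 others 93.9% on 63.6. The largest set had a median of 47.1 reads per position and a median level of 91.6%. In the other sets, of 2 to 27 methylated tiles, median reads per position ran from 65.4 to 112.7, above those of the 373. Their median levels ran from 89.5% to 95.2%. Per library, the medians of the 181 were 90.6%, 92.3% and 91.8% in hemicastrated and 91.3%, 93.0% and 91.5% in sham mice. Those of the 373 were 93.6%, 93.9% and 93.7% in hemicastrated and 93.5%, 94.3% and 94.5% in sham mice. In every library the median of the 181 was lower. The 2 parts also differed in location: 115 of the 181 lay outside genes, against 79 of the 373. The parts of depth and location in the difference in level were not tested.

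Hemicastrated and sham mice were then compared tile by tile. Methylated and unmethylated counts of 48964 tiles, dense or not, were tested with edgeR's quasi-likelihood F test, with p-values adjusted over all of them by the Benjamini-Hochberg method. A methylated dense tile cannot be below 80% in any library, which limits how far the groups can differ. Of the 554 tiles, 0 passed an adjusted p of 0.05, and over all tiles the share was also 0%. Every one of the 554 had an adjusted p of 1, and limma made 0 calls among them. At an unadjusted p under 0.05 there were 18 (3.25%), under the 4.24% of all tiles. Of these, 16 (2.89%) were lower in hemicastrated mice, where the share over all tiles was 2.11%. The other 2 (0.361%) were higher, where it was 2.13%. In unmethylated dense tiles the shares were 1.586% lower and 3.265% higher.

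The small differences of methylated dense tiles leaned to lower levels in hemicastrated mice (the plot of group means). The hemicastrated mean was below the sham mean in 355 of 554 tiles (64.1%), against 50.8% of all tiles. It was below in 55.6% of 14928 CpG-sparser tiles that also were at 80% or more in each library. Unmethylated dense tiles leaned the other way, with a lower hemicastrated mean in 42.9% of 15254 and a median difference of 0.0335 points. The values over all tiles thus mix opposite leans. The median difference, hemicastrated minus sham, was -0.369 points in methylated dense tiles, -0.182 points in those sparser tiles and -0.00832 points over all tiles. It moved with single libraries: it was -0.153 without hemicastrated replicate 1 and -0.177 without sham replicate 2, and -0.594 without sham replicate 1. Hemicastrated replicate 1 was the lowest of the 6 libraries in 173 of the 554 tiles and sham replicate 2 the highest in 168. The 3 hemicastrated levels were all below the 3 sham levels in 34 tiles (6.14%, against 4.78% of all tiles). They were all above them in 13 (2.35%, against 4.71% of all tiles). In unmethylated dense tiles these shares were 3.55% below and 6.16% above.

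**Figure D5:**
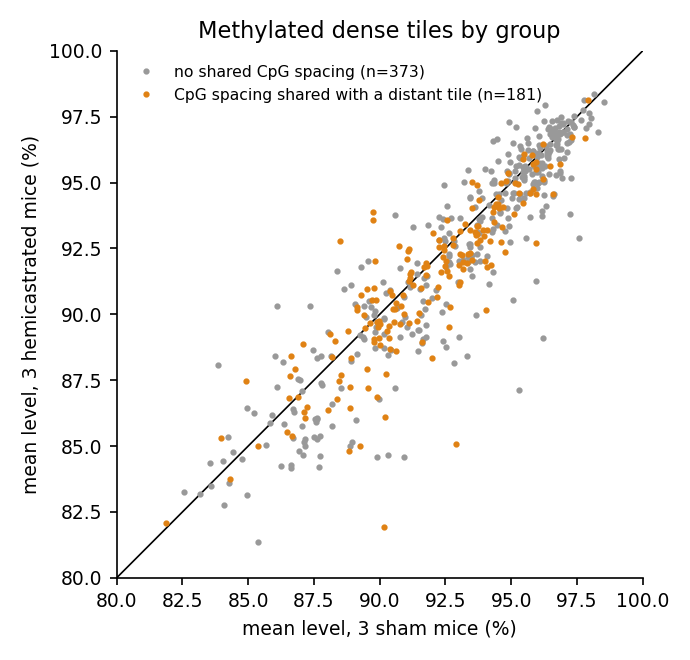
Mean level in 3 hemicastrated mice (vertical axis, %) against the mean level in 3 sham mice (horizontal axis, %) for each methylated dense tile, with tiles that share CpG spacing in orange (181) and the others in grey (373), and the line of equal levels. More tiles lie below the line (355) than above it (199), most of them close to it.

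The 5 tiles with the smallest p among those lower in hemicastrated mice had groups that did not overlap, and 0 of them passed the adjusted test. In the pseudogene Gm18562 (chr13:13340001-13340500) the levels were 89.1%, 92.3% and 92.3% in hemicastrated and 95.4%, 96.3% and 96.2% in sham mice, a difference of -4.69 points (edgeR adjusted p = 1). At chr12:96140501-96141000, 93279 bp from the nearest gene, they were 84.7%, 93.4% and 83.3% against 94.98%, 94.9% and 96.1%, a difference of -8.19 points (edgeR adjusted p = 1). The second of these rests mostly on hemicastrated replicates 1 and 3. In Hspg2, which encodes perlecan, a proteoglycan of basement membranes (chr4:137518001-137518500, 48.6% along the gene), the levels were 90.2%, 89.6% and 91.7% against 95.3%, 93.5% and 96.5%, a difference of -4.55 points (edgeR adjusted p = 1). The next were chr3:157674001-157674500, 29243 bp from Ptger3 (-3.71 points), and chr3:80132501-80133000 (-4.69 points).

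In the other direction, Alpk1, an alpha kinase gene (chr3:127771501-127772000), read 94.1%, 92.9% and 93.7% in hemicastrated and 88.9%, 91.7% and 88.6% in sham mice, a difference of 3.83 points with no overlap of the groups (edgeR adjusted p = 1). Its tile is one of the 181 with shared spacing. Cactin (chr10:81325501-81326000) differed by 1.63 points with overlapping groups, and the tile near Sult2a4 (chr7:13990001-13990500) by 4.25 points without overlap. Their adjusted p was 1 in each case.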

How the data were processed

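DNA methylation was measured in 6 testis libraries, 3 hemicastrated and 3 sham. The authors deposited for each library the methylated and unmethylated read counts of each listed cytosine, raw, and its methylation level in percent, which equals the methylated share of the 2 deposited counts. The build GRCm38, TopHat2 2.0.11 and Bismark, its version not given in the sources used here, are named without roles per the submitters' processing notes. Whether duplicate reads were removed is not stated there, and calls at neighbouring positions were counted as independent, so counting errors are lower limits. Counts were summed per tile of 500 bp and tested with edgeR 4.0.16 in R 4.3.3 (library columns for coverage plus a group effect on methylation; 48964 of 48989 tiles had both methylated and unmethylated reads and were tested), after a check on simulated data. limma 3.58.1 was an alternative, on log2 ratios with 1 added to each count. Python 3.11.15 did the rest. Genes, strands (25748 of 47042 genes) and promoters came from RefSeq tables of GRCm38.p6. Tiles were named by rule: smallest p in each direction, longest runs, most listed positions, gene starts, the threshold, widest range, gene lists and genes with most members. Some tiles that this rule names are not reported here. Members and lists were chosen with earlier results of these data known. Mice are separate animals per the labels' protocols. Replicate numbers were not taken as pairs, since same-numbered libraries correlated only weakly, at 0.0286, 0.018 and 0.0153. Each of these was nevertheless above every differently numbered pair, which ran from -0.0203 to 0.00218. Whether same-numbered libraries shared a batch was not tested.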

Additional observations from a re-analysis of the deposited data

How the results depend on the processing

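The number of methylated dense tiles was 135 with at least 50 listed positions, 2025 with at least 30 and 298 with a level of 90% or more. The median level of hemicastrated mice, 92.8%, became 93.4% with at least 30 listed positions, 92.0% (sham 92.6%) with a level of 70% or more and 95.2% (sham 95.4%) with 90% or more. With 90% or more, 71.1% of tiles lay inside genes, 21.8% outside, and sparser tiles beside them had a median of 94.4%; with tiles shifted by 250 bp that median was 92.2%. A window of 2000 bp at gene boundaries put 14.4% at gene ends and 51.1% inside. Methylated dense tiles gave 0 edgeR calls in every alternative; over all tiles a robust prior gave 1 and leaving out 1 library 0 to 1. Tiles lower in hemicastrated mice at an unadjusted p under 0.05 numbered 10 with limma and 7 to 18 leaving out 1 library; those higher numbered 2 to 6. The cause was not tested. With replicate numbers entered as a block there were 0 calls, 15 lower and 1 higher. Counts of shared spacing with 6 and 10 distances, the counts at an unadjusted p and the median difference were chosen after seeing the data. With 3 mice a group the adjusted test left differences of up to 8.25 points uncalled in methylated dense tiles. Over all tiles it left up to 39.3 points uncalled. The SD between mice (median 1.24 points) exceeded the counting error (0.829, itself a lower limit). The part of depth in what the test could call was not tested.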
